A study of Rattus norvegicus with 6 samples.

Results

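The genes described here are 10 components of BMP and TGF-beta signalling as endothelial cells use it. They were taken by gene name from the deposited count table of 33566 genes, and all 10 were among the 14603 genes tested. They comprise 1 ligand (Tgfb1), 1 co-receptor (Eng), 4 receptor kinases (Acvrl1, Bmpr2, Tgfbr1 and Tgfbr2), 2 inhibitory Smads (Smad6 and Smad7) and 2 target genes (Id1 and Id3). The cells were primary rat brain microvascular endothelial cells (rBMECs), isolated with a kit from SD rats aged 18 to 22 days (from cerebral cortex in the labels, from forebrain in the study's methods), cleared of other cells with a screening solution and used after a single passage in medium with endothelial growth supplements. In the Hcy group, 3 libraries came from cells given homocysteine for 24 h, for which the labels state a dose of 100 μM beside a prepared solution of 50 μM. The study's methods name only the prepared solution as what was used. Its results list 100 μM among the doses tested for effects on these cells but give none for the sequencing. The dose behind these values is therefore not settled. In the Veh group, 3 libraries came from cells given the vehicle, sterile water (ddH2O in the treatment protocol). The labels call the libraries biological replicates without saying whether they came from separate isolations, so the p-values measure the spread between these libraries.

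Ligands of this family bring together pairs of type II and type I receptors, which are serine/threonine kinases at the cell surface. TGF-beta ligands bind Tgfbr2 and Tgfbr1 and act through Smad2 and Smad3. Circulating BMP ligands act in endothelium mainly through Bmpr2, the type I receptor Acvrl1 (ALK1) and the co-receptor endoglin (Eng), which pass the signal to Smad1, Smad5 and Smad9. The pathway switches on its own brakes: BMP-activated Smads induce Smad6, Smad7 and the Id genes, and Smad6 and Smad7 then block the receptors. Inherited loss of ENG or ACVRL1 causes a human disease of fragile and malformed vessels, and loss of BMPR2 causes pulmonary arterial hypertension, which is why these genes are followed in vessel biology.

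In Hcy-treated rBMECs, the inhibitory Smads and Id1 fell, while neither the receptor kinases nor the co-receptor passed the test. Id1 was lower by 50.5%, Smad6 by 36.5% and Smad7 by 36.4% than in Veh. Of the 10 genes, 3 had an adjusted p of at most 0.05 (edgeR's quasi-likelihood test, Benjamini-Hochberg over all genes tested), all 3 lower in Hcy. Among all genes tested, 2.34% passed this threshold, 1.01% lower and 1.32% higher in Hcy. The study's methods also ask for a log2 fold change of 1 or more in either direction, and with it 1 of the 10 passed, Id1, against 0.486% of all genes. In 6 of the 10 every Hcy library lay below every Veh library, as in 9.27% of genes tested, and in 1, Tgfb1, every Hcy library lay above, as in 10.8%. At an unadjusted p of at most 0.05, 6 of the 10 passed, against 13.4% of all genes. The median log2 fold change of the 10 was -0.25, beside -0.02 over all genes tested. As the 10 were chosen with earlier results of these data known, these shares and medians describe them and do not test them as a set.

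The promoters of 4 genes are shown to give the start sites of genes the results turn on: Id1, Smad7 and the pseudoreceptor gene Bambi are genes of the pathway that fell, and Id3 is the close relative of Id1 that did not pass the test. Each runs from 250 bases before to 50 bases after the start site, 5′ to 3′, as RefSeq gives it on the rat build GRCr8. Capitals mark the motifs searched on both strands, which were GGCGCC and GCCGNCGC, GC-rich elements of the kind that BMP-activated Smads bind, and CAGAC, which holds the core bound by Smad3 and Smad4.

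Id1 (chr3:161671314-161671613, plus strand): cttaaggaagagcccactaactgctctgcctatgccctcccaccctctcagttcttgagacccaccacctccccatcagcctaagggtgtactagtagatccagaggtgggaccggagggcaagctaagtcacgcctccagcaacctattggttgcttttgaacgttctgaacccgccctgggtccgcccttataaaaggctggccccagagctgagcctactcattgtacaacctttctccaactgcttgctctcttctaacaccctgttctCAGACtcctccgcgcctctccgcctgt

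Id3 (chr5:153656041-153656340, plus strand): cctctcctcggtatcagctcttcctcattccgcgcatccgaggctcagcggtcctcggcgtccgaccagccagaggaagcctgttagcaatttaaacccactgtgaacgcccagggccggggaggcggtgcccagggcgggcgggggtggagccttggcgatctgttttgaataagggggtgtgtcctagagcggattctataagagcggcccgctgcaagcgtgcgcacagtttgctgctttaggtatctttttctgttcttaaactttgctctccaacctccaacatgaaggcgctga

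Smad7 (chr18:71263258-71263557, plus strand): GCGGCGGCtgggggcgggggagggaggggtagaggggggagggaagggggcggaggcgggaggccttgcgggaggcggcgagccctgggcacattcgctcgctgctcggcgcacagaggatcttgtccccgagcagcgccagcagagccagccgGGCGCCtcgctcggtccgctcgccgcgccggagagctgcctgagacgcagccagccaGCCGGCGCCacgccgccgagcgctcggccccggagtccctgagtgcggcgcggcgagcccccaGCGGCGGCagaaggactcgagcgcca

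Bambi (chr17:58820954-58821253, minus strand): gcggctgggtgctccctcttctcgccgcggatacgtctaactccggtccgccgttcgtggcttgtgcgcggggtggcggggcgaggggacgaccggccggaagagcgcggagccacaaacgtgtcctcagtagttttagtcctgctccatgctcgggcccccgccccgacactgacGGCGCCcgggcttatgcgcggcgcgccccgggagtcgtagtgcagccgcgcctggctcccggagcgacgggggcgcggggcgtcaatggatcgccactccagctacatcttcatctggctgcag

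The Smad7 promoter held GGCGCC 2 times, starting 96 and 36 bases upstream, and GCCGNCGC 3 times, at 250 and 39 bases upstream and 24 bases downstream. The copies at 39 and 36 bases upstream overlap each other. In the Bambi promoter GGCGCC occurred 1 time, 74 bases upstream. The Id1 promoter had neither GC-rich motif in this window and a CAGAC 23 bases downstream of the start, and that of Id3 had none of the 3. Of 33469 rat promoters of the same length, 11.0% held GGCGCC, 9.34% held GCCGNCGC and 50.1% held CAGAC. Among the 8 members in the promoter table, 2 held each motif: Tgfbr1 and Smad7 both GC-rich ones, and Eng and Id1 CAGAC. Among the other genes called, Inhbb, which rose, held GGCGCC 2 times and GCCGNCGC 1 time, Lrg1, which also rose, held neither and had CAGAC 1 time, and Bmp4, which fell, held neither and had CAGAC 2 times. Acvrl1 and Smad6 were not matched. A match describes these letters only, and more distant elements were not searched.

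Libraries held 14024997 to 16764584 counted reads, and levels are given as CPM (counts scaled to library size after TMM normalization), where 3 counts correspond to 0.178 to 0.215 CPM. The endothelial label was checked against 18 marker genes. Cdh5 (VE-cadherin) stood at 1796 ± 231 CPM in Veh and 1961 ± 104 in Hcy (SD, n = 3), and Erg, Kdr, Tek and the row matched to Pecam1 by its protein name were between 244 and 1102 CPM in both group means. Other markers of the list were low, with means of 4.18 CPM in Veh and 3.08 in Hcy for Mfsd2a and 5.17 and 3.57 for Slco1a4. Slc2a1 was higher, at 621 and 497 CPM. Robo4 had a mean of 4.04 CPM in Veh and 23.8, 23.4 and 3.34 CPM in Hcy replicates 1 to 3. Its groups overlapped and it did not pass (log2 fold change 2.04, adjusted p = 0.156). Cldn5, a tight junction gene of brain endothelium, had 0 counts in all 6 libraries, and whether reads could be assigned to its row was not tested. The summed level of the 17 endothelial markers found was 9537 to 10723 CPM in Veh and 11240 to 11634 CPM in Hcy and was higher in every Hcy library. Vwf and Cdh5 made up much of it. Of the 16 markers tested none passed, 9 with a positive and 7 with a negative log2 fold change, and Tek (-0.24), Slc2a1 (-0.32), Mfsd2a (-0.44) and Slco1a4 (-0.53) were lower in every Hcy library, while Pecam1 (0.34), Kdr (0.37), Flt1 (0.26), Tie1 (0.11) and Vwf (0.36) were higher in every one. The part of these markers in the results below was not tested. In bulk RNA, fewer cells of a type and less RNA per cell cannot be told apart. Veh replicate 3 stood apart from Veh replicates 1 and 2 on the first principal component, at 40.2 against 12.1 and 14.8 (Hcy libraries -31.1 to -17.4). On the second component it was at 27.3 against -24.7 and -29.6. There Hcy replicates 1, 2 and 3 were at 21.9, -9.66 and 14.8. Calls that Veh replicate 3 changed are given with and without it.

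Id1 encodes an inhibitor of DNA binding that dimerizes with basic helix-loop-helix transcription factors and is a classic immediate target of BMP signalling. It had 53.4, 49.4 and 53.2 CPM in Veh replicates 1, 2 and 3 and 24.2, 22.3 and 30.6 CPM in Hcy replicates 1, 2 and 3. The groups were far apart, with the highest Hcy library well under the lowest Veh library, and Hcy replicate 3 was the highest of the Hcy libraries. The means were 52.0 ± 2.21 CPM in Veh and 25.7 ± 4.32 CPM in Hcy (SD, n = 3), which is a log2 fold change of -1.01 (SE 0.12, 95% interval -1.28 to -0.75, adjusted p = 0.00423). By p, Id1 was gene 46 of all those tested. The deposited table, whose positions are on an unnamed build other than that of the promoters, places Id1 on chromosome 3 from 148215540 to 148216718 on the plus strand. The call held in all 13 alternative analyses, with log2 fold changes from -1.16 to -0.92, so whether Id1 also passed a log2 fold change of 1 depended on the libraries.

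Id3 (chr5:154489590-154491223, plus strand), the related inhibitor, was more abundant and differed by a smaller factor. Veh libraries had 202, 195 and 209 CPM and Hcy libraries 178, 153 and 163 CPM. Each Hcy library was below each Veh library, by 18.5% on average, but the difference did not pass the test (log2 fold change -0.30, SE 0.08, 95% interval -0.47 to -0.12, adjusted p = 0.104). Without Veh replicate 3 it did, at -0.27 (adjusted p = 0.0474), and DESeq2 also called it (adjusted p = 0.0286). The ratio of Id1 to Id3 within a library, per length, does not depend on how libraries are scaled. On the log2 scale it was -1.85, -1.91 and -1.90 in Veh and -2.80, -2.71 and -2.35 in Hcy, so Id1 was lower relative to Id3 in every Hcy library. The exact two-sided permutation test gave p = 0.1, the smallest that 3 against 3 libraries allow, and 0.3 after adjustment over the 3 ratios computed, which were chosen after values had been seen.

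**Figure D1:**
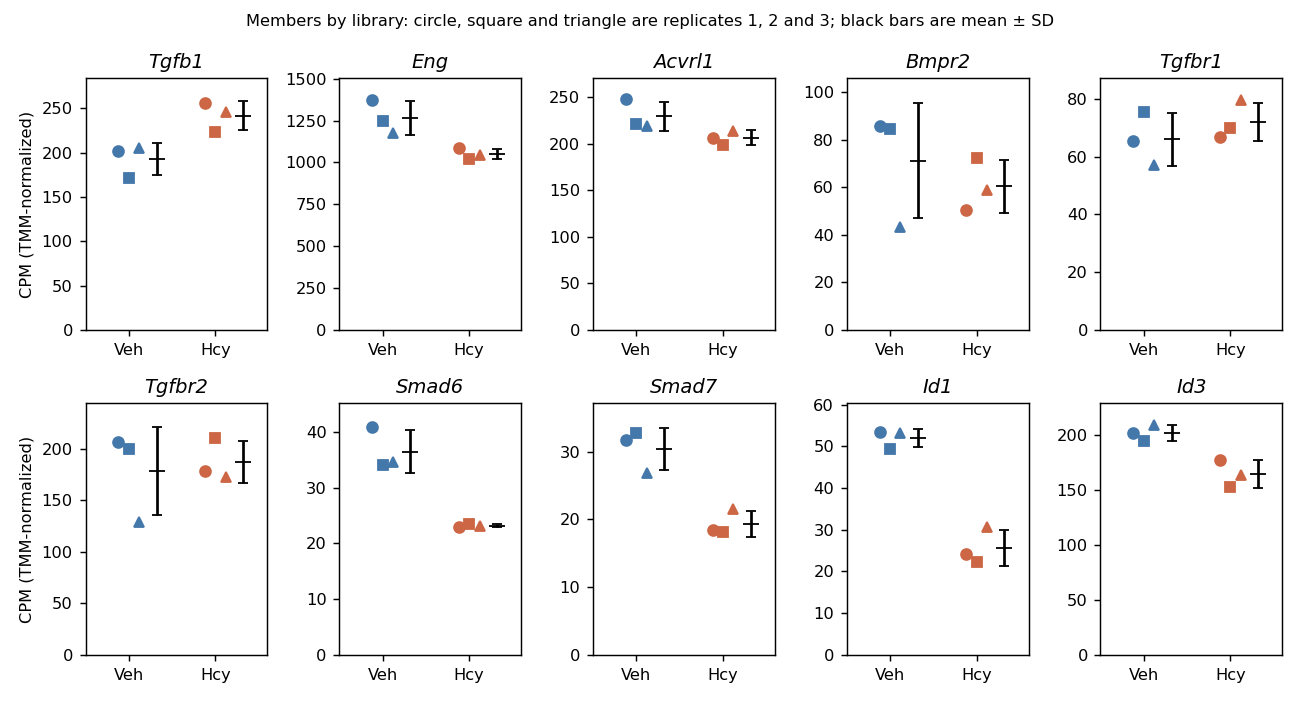
Level of each of the 10 genes in every library, in TMM-normalized CPM on axes that start at 0. Circles, squares and triangles are replicates 1, 2 and 3 of Veh (blue) and Hcy (orange), and black bars are mean ± SD (n = 3). For Id1, Id3, Smad6, Smad7, Eng and Acvrl1 all Hcy points lie under all Veh points, and for Tgfb1 all lie above. Bmpr2 and Tgfbr2 show the low Veh replicate 3.

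The inhibitory Smads declined to a like extent. Smad6, which acts mainly on the BMP branch, had 40.8, 34.0 and 34.5 CPM in Veh replicates 1 to 3 and 23.0, 23.4 and 23.0 CPM in Hcy replicates 1 to 3. The 3 Hcy libraries nearly coincided, and all lay under the lowest Veh library. The mean went from 36.4 ± 3.82 to 23.2 ± 0.251 CPM (SD, n = 3), with a log2 fold change of -0.66 (SE 0.10, 95% interval -0.88 to -0.43, adjusted p = 0.0128). The listed position of Smad6 is chromosome 8 from 68898296 to 68966108 on the minus strand.

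Smad7, which blocks both branches by binding type I receptors and recruiting Smurf ubiquitin ligases, had 31.7, 32.7 and 26.8 CPM in Veh and 18.4, 18.1 and 21.5 CPM in Hcy. The groups did not overlap, although Veh replicate 3 and Hcy replicate 3 came closest to each other. Means were 30.4 ± 3.16 and 19.3 ± 1.92 CPM (SD, n = 3), for a log2 fold change of -0.65 (SE 0.12, 95% interval -0.92 to -0.39, adjusted p = 0.0247). Its gene spans chromosome 18 from 71395830 to 71424157 on the plus strand. Both inhibitory Smads lost the call when certain libraries were left out: Smad6 without any 1 of the Hcy libraries (adjusted p up to 0.0825), and Smad7 in each of those fits and without Veh replicate 1 or 2 (up to 0.13). Their log2 fold changes stayed between -0.71 and -0.56 for Smad6 and between -0.74 and -0.60 for Smad7 across all alternatives.

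None of the receptors passed the test with all libraries. Eng (chr3:11679530-11717485, plus strand), the endothelial co-receptor that favours BMP signalling through Acvrl1, was the most abundant of the 10. It had 1373, 1247 and 1176 CPM in Veh and 1086, 1023 and 1043 CPM in Hcy. Every Hcy library was below every Veh library, a difference of 17.0% (log2 fold change -0.27, SE 0.07, 95% interval -0.43 to -0.10) with an adjusted p of 0.116, which did not pass. Leaving out Veh replicate 3, the lowest of the Veh libraries for this gene, gave -0.32 (adjusted p = 0.00751), and DESeq2 on all libraries gave an adjusted p of 0.0387. Acvrl1 (chr7:142776252-142787335, plus strand), the type I receptor for circulating BMPs, had 248, 222 and 219 CPM in Veh and 207, 199 and 214 CPM in Hcy. Hcy libraries again all lay lower, though only narrowly, and the 95% interval of the log2 fold change (-0.15) ran from -0.32 to 0.02 (adjusted p = 0.441).

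For Bmpr2 (chr9:66568074-66676494, plus strand), the type II receptor of the BMP branch, the call depended on 1 library. Its levels were 86.0, 84.4 and 43.3 CPM in Veh and 50.3, 72.3 and 58.9 CPM in Hcy. Veh replicate 3 was lower than every Hcy library, while Veh replicates 1 and 2 were higher than every Hcy library. With all libraries the log2 fold change was -0.24 (SE 0.24, 95% interval -0.78 to 0.31, adjusted p = 0.753). Without Veh replicate 3 it was -0.49 and passed (adjusted p = 0.0391). Leaving out another library brought it to -0.08 without Veh replicate 1, -0.10 without Veh replicate 2 and -0.12 without Hcy replicate 1, and took it to -0.38 without Hcy replicate 2, none of which passed. A gene listed inside Bmpr2 on the other strand, AABR07067829.1, had 286, 318 and 466 counts in Veh and 467, 325 and 377 in Hcy replicates 1 to 3. In each group it was highest in the library where Bmpr2 was lowest, Veh replicate 3 and Hcy replicate 1. As counting by strand is not stated, reads of the pair may have been shared. The part of this in the Bmpr2 levels was not tested. None of the other 9 genes overlapped another listed gene.

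For the receptors of the TGF-beta branch the groups overlapped. Tgfbr2 (chr8:124312754-124399494, minus strand), the type II receptor, had 207, 199.5 and 129 CPM in Veh and 178, 211 and 173 CPM in Hcy, with Veh replicate 3 again far below the rest. Its log2 fold change of 0.07 had a 95% interval of -0.31 to 0.44 (adjusted p = 0.918), and it turned to -0.12 without Veh replicate 3 and to -0.03 without Hcy replicate 2. Tgfbr1 (chr5:63050758-63119635, plus strand), the type I receptor, had 65.4, 75.4 and 57.2 CPM in Veh and 66.9, 69.9 and 79.5 CPM in Hcy, and the groups overlapped (log2 fold change 0.13, 95% interval -0.13 to 0.38, adjusted p = 0.706). Leaving out 1 library gave 0.04 without Veh replicate 3, 0.05 without Hcy replicate 3 and 0.23 without Veh replicate 2. The log2 ratio of Acvrl1 to Tgfbr1 within a library was 2.50 ± 0.22 in Veh and 2.22 ± 0.10 in Hcy (SD, n = 3, exact permutation p = 0.2). That of Bmpr2 to Tgfbr2 was -1.84 ± 0.19 and -2.12 ± 0.16 (SD, n = 3, exact permutation p = 0.3) and in both pairs the groups overlapped. With 3 against 3 libraries this test cannot go below 0.1.

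Tgfb1 (chr1:82480195-82497199, plus strand), the ligand TGF-beta 1, was the only one of the 10 that was higher in every Hcy library. It had 202, 172 and 205 CPM in Veh replicates 1 to 3 and 256, 223 and 245 CPM in Hcy replicates 1 to 3. The mean was 25.3% higher, with a log2 fold change of 0.33 (SE 0.09, 95% interval 0.12 to 0.53), but the adjusted p of 0.125 did not pass. Without Veh replicate 3 the log2 fold change was 0.37 (adjusted p = 0.0245), and with DESeq2 the adjusted p was 0.0277.

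**Figure D2:**
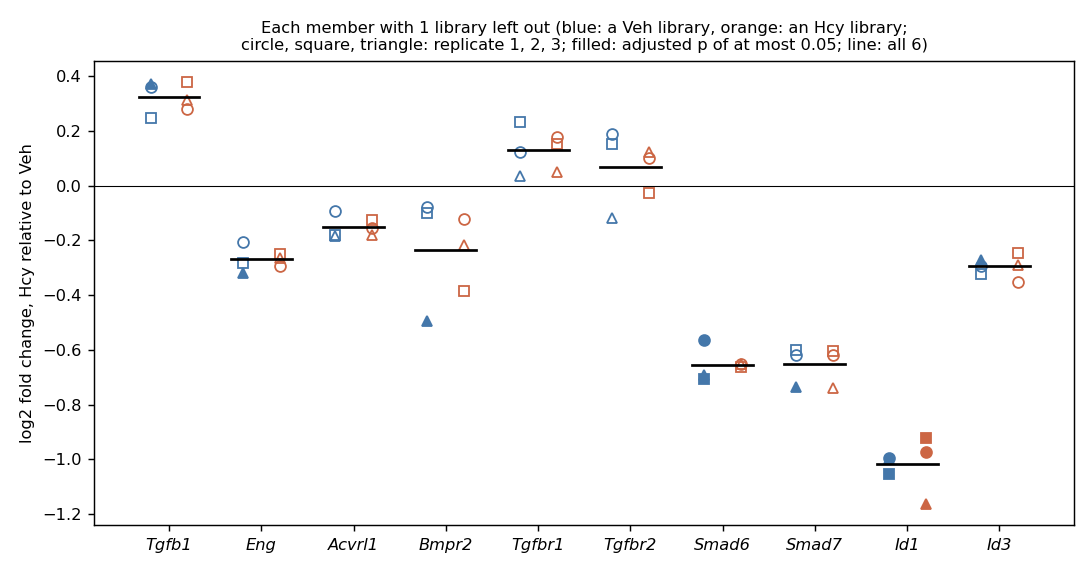
Log2 fold change of each gene, Hcy relative to Veh, with 1 library left out at a time. Blue marks leave out a Veh library, orange marks an Hcy library, circles, squares and triangles are replicates 1, 2 and 3, filled marks have an adjusted p of at most 0.05, and black lines are the values with all 6 libraries. Id1 was called in all 6 of these fits, and Bmpr2 in 1, without Veh replicate 3.

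Leaving out Veh replicate 3 raised the count from 3 to 7 of the 10 genes, 6 lower (Id1, Smad6, Smad7, Eng, Id3 and Bmpr2) and 1 higher (Tgfb1). The share of all genes called rose as well in that fit, from 341 of 14603 to 957 of 14352 (6.67%). DESeq2 on all libraries called 6, the same genes without Bmpr2, and 612 of all genes. Veh replicate 3 was the lowest of the Veh libraries for 6 of the 10 genes, among them all 5 receptors and co-receptors, and the highest for Tgfb1 and Id3. The replicate spread was widest for Bmpr2, with a coefficient of variation of 34.0% in Veh, and for Tgfbr2, with 24.0%. For Id1 it was 4.25% in Veh and 16.8% in Hcy, for Id3 3.50% and 7.56%, and for Smad6 10.5% and 1.09%.

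Levels can be compared between genes only per length, as RPKM (the CPM divided by the listed gene length in kilobases). In Veh the order was Eng (417 ± 32.8 RPKM, SD, n = 3), Id3 (201 ± 7.02), Tgfb1 (90.1 ± 8.62), Tgfbr2 (64.2 ± 15.4), Acvrl1 (63.3 ± 4.37), Id1 (54.3 ± 2.30), Smad6 (26.6 ± 2.78), Bmpr2 (18.4 ± 6.26), Tgfbr1 (11.2 ± 1.55) and Smad7 (7.07 ± 0.736). Tgfbr2 and Acvrl1 overlapped over the libraries, as did Bmpr2 and Tgfbr1, and the other neighbours in the order did not. The order was the same in Hcy. There Id1 stood at 26.8 ± 4.51 RPKM and Smad6 at 16.9 ± 0.183 RPKM, and Smad6 overlapped Bmpr2 (15.6 ± 2.87 RPKM), from which it had been separate in Veh.

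**Figure D3:**
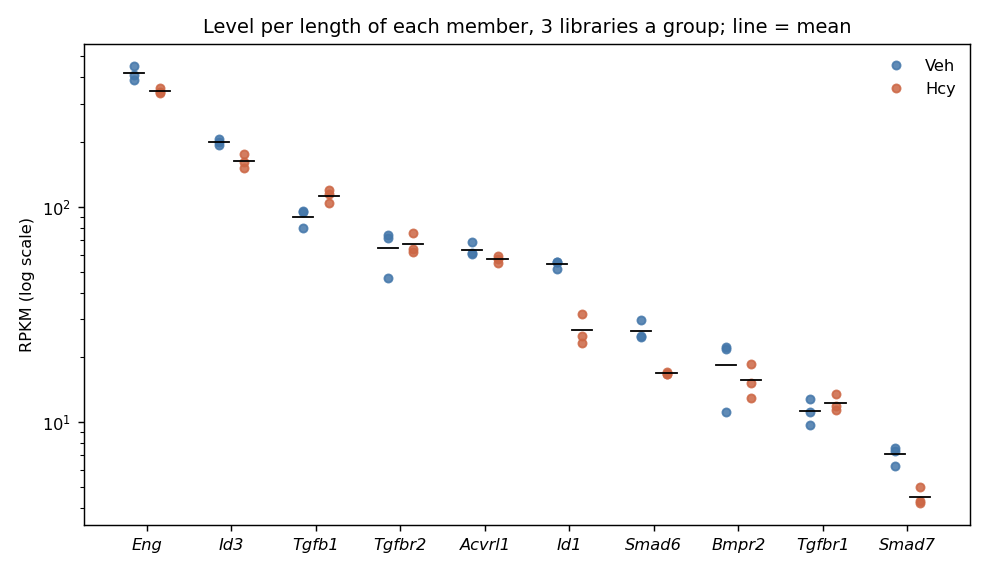
Level per length of each gene in RPKM on a log axis, in the order of the Veh means. Points are the 3 libraries of Veh (blue) and Hcy (orange) and lines their means. Eng was highest and Smad7 lowest in both groups, and the gap between the groups is widest for Id1.

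The rest of the pathway was described through 97 further genes in 9 lists, and 72 of them passed the count filter. The test called 4 of the 72, Bambi and Bmp4 lower and Inhbb and Lrg1 higher in Hcy, beside 2.34% of all genes. Their median log2 fold change was -0.01. The groups did not overlap for 18 of them, 9 of the 72 lower and 9 higher in Hcy, beside the 9.27% and 10.8% of all genes, so these shares were near the background.

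Bambi encodes a pseudoreceptor without a kinase domain that dampens signalling and is itself induced by BMP and TGF-beta. It had 43.0, 35.9 and 37.0 CPM in Veh and 18.2, 19.9 and 23.5 CPM in Hcy, a decline of 46.7%. No Hcy library reached the lowest Veh library, and the log2 fold change was -0.91 (SE 0.12, 95% interval -1.18 to -0.64, adjusted p = 0.00781). Like Id1, it was called in all 13 alternatives. The other 8 receptors tested did not pass. Acvr1b, an activin type I receptor, had 6.67 ± 1.27 CPM in Veh and 4.38 ± 0.875 CPM in Hcy (SD, n = 3, adjusted p = 0.228). Acvr1, of the same list, was at 33.2 ± 2.81 CPM in Veh and 33.8 ± 1.10 CPM in Hcy (SD, n = 3, adjusted p = 0.9545). Bmpr1a, a type I BMP receptor in many other tissues, was near the floor, with 9, 3 and 2 counts in Veh and 3, 4 and 10 in Hcy.

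Among BMP ligands, Bmp4 was the most abundant per length, at 104 ± 1.95 RPKM in Veh. It had 228, 224 and 219 CPM in Veh and 178, 155 and 167 CPM in Hcy. The groups were clearly apart and the mean was 25.6% lower, with a log2 fold change of -0.43 (SE 0.07, 95% interval -0.59 to -0.26, adjusted p = 0.0207). Of the other 5 BMP and GDF ligands tested, none passed. Bmp6 stood at 109 ± 17.0 CPM in Veh and 113 ± 5.55 CPM in Hcy (SD, n = 3, adjusted p = 0.902). Bmp2 and Bmp7 were below 10 CPM in every library, with adjusted p of 0.991 and 0.513. Gdf2 (BMP9) and Bmp10, the circulating ligands of Acvrl1 that come mainly from liver and heart, had 0 counts in all 6 libraries, which allows up to 0.215 CPM if reads could be assigned to their rows.

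Inhbb, the activin and inhibin beta-B subunit, rose. It had 2.43, 3.50 and 2.56 CPM in Veh and 6.39, 7.19 and 7.22 CPM in Hcy, and each Hcy library was well above each Veh library. The log2 fold change was 1.29 (SE 0.20, 95% interval 0.84 to 1.74, adjusted p = 0.0131), at 37 to 121 counts a library. Tgfb2, the most abundant ligand of its list, was at 449 ± 33.1 CPM in Veh and 439 ± 14.9 CPM in Hcy (SD, n = 3, adjusted p = 0.907). Gdf11 had 16 to 33 counts a library and an adjusted p of 0.632.

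Lrg1, a secreted glycoprotein that binds endoglin and modifies TGF-beta signalling in endothelium, had 93.3, 78.9 and 101 CPM in Veh and 140.4, 124 and 129 CPM in Hcy. Hcy libraries were all higher, with a log2 fold change of 0.53 (SE 0.10, 95% interval 0.30 to 0.76, adjusted p = 0.0331). Of the other 6 genes of TGF-beta latency and activation tested, none passed. Lrrc32 (GARP), which holds latent TGF-beta at the cell surface, had 285, 259 and 217 CPM in Veh and 191, 180.2 and 191 CPM in Hcy, without overlap (log2 fold change -0.44, adjusted p = 0.0607). It passed with DESeq2 on all libraries (adjusted p = 0.00257), with no count minimum (adjusted p = 0.0219) and without Veh replicate 3, at -0.54 (adjusted p = 0.000825). Thbs1 (thrombospondin 1), an activator of latent TGF-beta and the most abundant of that list, ranged from 2001 to 3727 CPM in Veh and from 2099 to 2251 CPM in Hcy (adjusted p = 0.325). Here too the low Veh library was replicate 3, and without it the log2 fold change was -0.66 (adjusted p = 0.000681). The calls of Bmp4, Inhbb and Lrg1 were less firm than that of Bambi. Bmp4 and Lrg1 lost theirs whenever any library other than Veh replicate 3 was left out (adjusted p up to 0.124 and 0.16), and Inhbb lost its call without Veh replicate 1 or any 1 of the Hcy libraries (up to 0.08). Their log2 fold changes ran from -0.48 to -0.38 for Bmp4, 0.43 to 0.61 for Lrg1 and 1.19 to 1.47 for Inhbb over all alternatives.

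Of the 6 Smads that carry the signal, 5 were tested and none passed. Smad1, of the BMP branch and the most abundant of them per length, was at 122 ± 4.62 CPM in Veh and 139.8 ± 4.71 CPM in Hcy (SD, n = 3). It was higher in every Hcy library, with a log2 fold change of 0.20 (95% interval 0.04 to 0.36, adjusted p = 0.228). Smad3, of the TGF-beta branch, was at 188 ± 26.8 and 178 ± 6.79 CPM (SD, n = 3, adjusted p = 0.822). Smad9 had 0 counts in all libraries, as did Cldn5, and whether reads could be assigned to its row was likewise not tested. Of 14 intracellular regulators tested, none passed with all libraries, and 3 did without Veh replicate 3 (Smurf2, Fkbp1a and Skil). Smurf2, the ubiquitin ligase that Smad7 recruits, had 441 ± 39.2 CPM in Veh and 373 ± 11.1 CPM in Hcy (SD, n = 3, adjusted p = 0.196, log2 fold change -0.24, and without Veh replicate 3 -0.31 with adjusted p = 0.00702). Fkbp1a, which binds type I receptors and keeps them silent, was the most abundant, with 1077 ± 121 and 1192 ± 2.15 CPM (SD, n = 3, adjusted p = 0.517, log2 fold change 0.15, and without Veh replicate 3 0.24 with adjusted p = 0.016).

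Of 9 extracellular BMP and activin binders tested, none passed. Chrd (chordin), which traps BMP4, had 19, 14 and 6 counts in Veh and 31, 25 and 47 counts in Hcy, higher in every Hcy library but not past the test (log2 fold change 1.44, SE 0.39, adjusted p = 0.113). Chrdl1, a chordin relative, had 2, 2 and 1 and 6, 4 and 8 counts (adjusted p = 0.249). Twsg1, the most abundant of the list, was at 31.7 ± 4.42 CPM in Veh and 31.9 ± 1.11 CPM in Hcy (SD, n = 3, adjusted p = 0.987).

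Other BMP-responsive genes were expressed at low levels. Of the 7 tested, 5 had a positive and 2 a negative log2 fold change, and none passed. Id2 and Atoh8, the pair with negative values, had 18 to 49 and 20 to 50 counts a library, with log2 fold changes of -0.59 (adjusted p = 0.479) and -0.60 (adjusted p = 0.469). Msx1, a homeobox gene, was at 4.15 ± 0.575 CPM in Veh and 6.39 ± 0.879 CPM in Hcy (SD, n = 3, adjusted p = 0.16). Hey1, which Notch also induces, was at 0.771 ± 0.327 and 1.40 ± 0.0631 CPM (SD, n = 3, adjusted p = 0.367). Both were higher in every Hcy library.

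Of the 9 genes tested from the list of TGF-beta-responsive genes, which was not exhaustive, none passed. Fn1 (fibronectin) had 16153 ± 2462 CPM in Veh and 14909 ± 565 CPM in Hcy (SD, n = 3, log2 fold change -0.12, 95% interval -0.35 to 0.12, adjusted p = 0.706). It was -0.22 without Veh replicate 3 (adjusted p = 0.0524) and close to 0 without Veh replicate 1. Ccn2 (CTGF), a matricellular protein, was lower in every Hcy library, at 3815 ± 257 against 3304 ± 170.3 CPM (SD, n = 3, log2 fold change -0.21, adjusted p = 0.224, and without Veh replicate 3 -0.24 with adjusted p = 0.042). Snai2 (Slug), a transcription factor of endothelial-to-mesenchymal transition, had 31, 18 and 32 counts in Veh and 7, 11 and 9 in Hcy, without overlap (log2 fold change -1.53, SE 0.37, adjusted p = 0.0834).

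**Figure D4:**
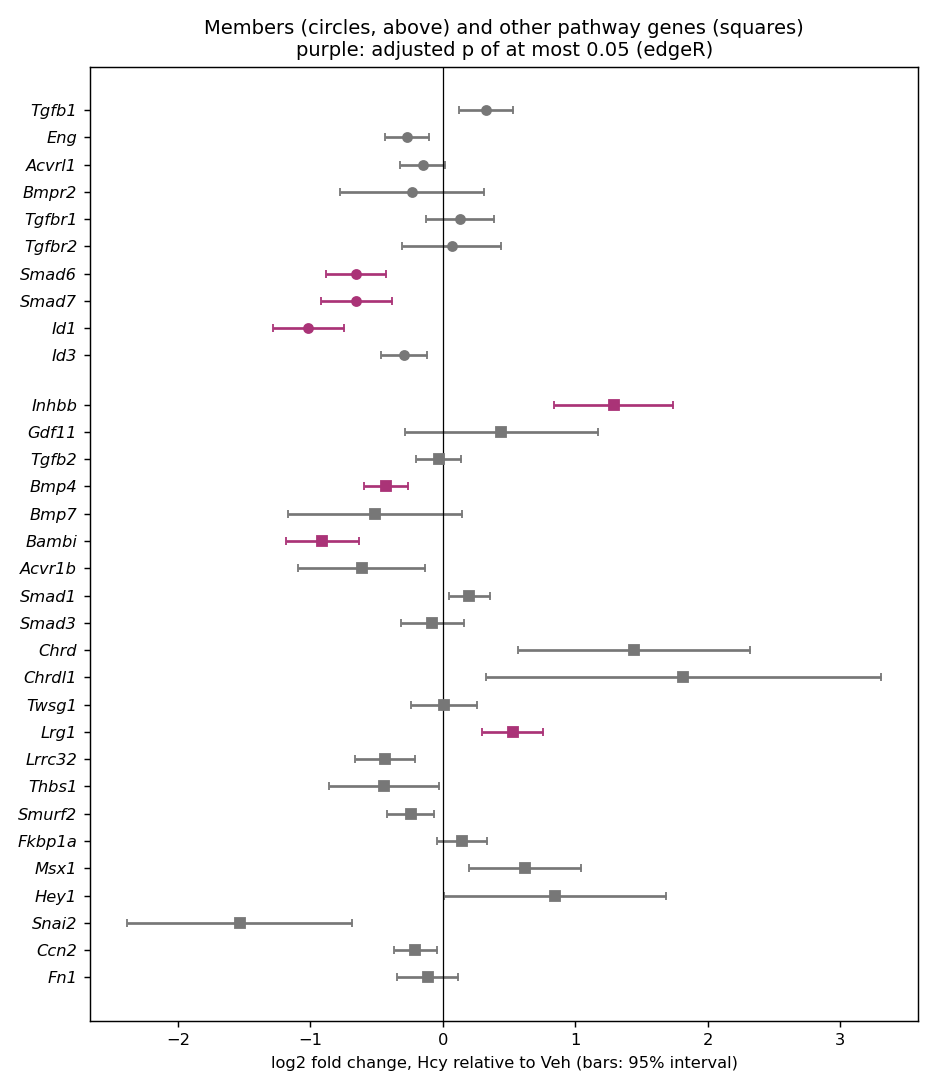
Log2 fold changes, Hcy relative to Veh, with 95% intervals, of the 10 genes (circles, above) and of the 22 named genes of the other lists (squares), in purple where the adjusted p from edgeR was at most 0.05. Among the called genes, the intervals of Id1, Smad6, Smad7, Bambi and Bmp4 lie below 0 and those of Inhbb and Lrg1 above 0. Several genes that were not called also have intervals that exclude 0, such as Eng, Id3, Lrrc32 and Snai2 below and Tgfb1 and Chrd above.

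The contractile genes Tagln, Cnn1 and Acta2 fell together with these genes. Of 11 smooth muscle and pericyte markers tested, these 3 passed, all lower in Hcy: Tagln went from 1071 ± 91.4 to 582 ± 9.44 CPM (SD, n = 3, adjusted p = 0.000801), Cnn1 from 21.5 ± 1.09 to 8.22 ± 1.32 CPM (SD, n = 3, adjusted p = 0.00177) and Acta2 from 149 ± 23.0 to 95.5 ± 6.33 CPM (SD, n = 3, adjusted p = 0.0248). The summed level of the 11 was 1124 to 1352 CPM in Veh and 681 to 708 CPM in Hcy. The 8 markers other than these 3 did not pass. Their log2 fold changes were 0.73 for Pdgfrb, 1.26 for Rgs5, 1.66 for Cspg4, 0.87 for Abcc9, 0.44 for Notch3, 0.55 for Des, -0.99 for Kcnj8 and -0.04 for Myh11. They summed to 4.84 to 6.30 CPM in Veh and 6.03 to 9.40 CPM in Hcy, and none of the 11 was at 0 in all libraries. Their part in the declines of Id1, Smad6, Smad7 and Bambi was not tested. The sums of astrocyte, microglia and epithelial markers were at most 3.09 CPM in every library, with Aqp4, Slc1a2, Cx3cr1, Ptprc and P2ry12 at 0 counts. Neuronal markers summed to at most 9.77 CPM, mostly Tubb3, and oligodendrocyte markers to at most 12.4 CPM, mostly Mog. Fibroblast markers, mostly Col1a1, summed to 63.5 to 91.2 CPM in Veh and 44.9 to 68.7 CPM in Hcy.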

How the data were processed

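RNA from 6 rBMEC cultures, 3 Hcy and 3 Veh, was sequenced from poly(A)-enriched libraries. The table deposited by the authors holds raw read counts for each gene, with positions and gene lengths in bases. The submitters' processing notes name fastp, HISAT2 2.2.1, StringTie 2.2.3, Cufflinks, featureCounts 2.0.6 and DESeq2 1.42.0 and the builds mRatBN7.2 and rn7, without roles, and the table itself names no build, so its positions are given as listed. Their table of normalized values, fold changes and p-values from their own comparison was not used.

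A gene was tested where its counts over all libraries summed to 10 or more. Counts were scaled by TMM and compared by edgeR's quasi-likelihood test (R 4.3.3, edgeR 4.0.16, limma 3.58.1), with condition as the only term and Benjamini-Hochberg adjustment over all 14603 genes. The study's methods used DESeq2 (1.42.0), run here as an alternative. The standard error is the absolute log2 fold change over the square root of F, and the prior count was 0.125. The 95% intervals rest on this standard error and include the spread between libraries, while the floor of 3 counts covers counting error only.

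The members, the pathway and marker lists, the motifs and the tests were chosen with earlier results of these data known. All members are named. From each pathway list, every gene with an adjusted p of at most 0.05, the 2 with the smallest p and the one with the highest RPKM are named. A few further genes (Bmp2, Bmp6, Bmpr1a, Acvr1, Id2, Atoh8, Smad9, Gdf2, Bmp10, Skil and Col1a1) were chosen after their values were seen. Of 173 list entries, 170 matched by symbol, Pecam1 by the protein name in the description, and Abcb1a and Col1a2 were not matched.

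The alternatives were DESeq2, its size factors, library totals, no count minimum, filterByExpr, the replicate number as a block, a prior count of 2 and leaving out each library. The prior count alters the reported fold change but not the p-value, so that alternative could not change a call. On counts simulated over 14603 genes, edgeR recovered 94 of 100 genes changed by 0.5 and 100 of 100 changed by 1 on the log2 scale. It made 12 wrong calls. The changed genes were drawn only from genes with high mean counts. The simulated spread was set below edgeR's estimate for these libraries (common biological coefficient of variation 0.146). The recovered shares therefore do not carry over to the spread seen here or to genes with few counts.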

Additional observations from a re-analysis of the deposited data

How the results depend on the processing

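Over the 10 genes and 13 alternatives, 113 of 130 values kept their direction and their side of the threshold, 8 lost the call, 7 gained it and 2 changed sign. For the 22 named genes of the pathway lists, 259 of 284 values did so. Both totals include the prior count of 2, which could not change a call. DESeq2 called 612 of all genes and 6 of the 10. Adding a log2 fold change of at least 1 left 71 of all genes and 1 of the 10, and an unadjusted p of at most 0.05 gave 6 of the 10, beside 13.4% of all genes. With each library left out in turn, between 80 (without Hcy replicate 1) and 957 (without Veh replicate 3) genes were called, between 1 (without any Hcy replicate) and 7 (without Veh replicate 3) of the 10, and between 1 (without any Hcy replicate or Veh replicate 1) and 10 (without Veh replicate 3) of the pathway genes. The log2 fold change of Tgfbr2 then ran from -0.12 to 0.19, that of Tgfb2 from -0.080 to 0.026 and that of Twsg1 from -0.075 to 0.12, each changing sign. The cause was not tested, and these fits have fewer samples. Same-numbered Hcy and Veh libraries deviated together with correlations of -0.01, 0.11 and 0.05 across genes, so the numbers were not taken as pairs. With the replicate block, 298 of all genes, 3 of the 10 and 5 of the pathway genes were called, the added gene being Col1a1. Chrd, Chrdl1 and Bmpr1a had few counts, and whether depth limited their tests was not tested.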
